A study of Arabidopsis thaliana with 5 samples.

Results

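The nuclear genome of Arabidopsis encodes the antenna proteins, many small subunits of both photosystems, the Rubisco small subunit and several electron carriers of the chloroplast. In total 45 of these genes were followed here, listed by locus number and found by matching that number to the locus identifier of each spot on the array. All 45 loci were among the 26017 loci on the array, and they were carried by 62 spots. They comprise 6 antenna proteins of photosystem I (LHCI), 8 of the major antenna of photosystem II (LHCII), 5 minor antenna proteins, 10 subunits of photosystem I, 7 proteins of photosystem II, 4 Rubisco small subunits with Rubisco activase, and 4 electron carriers.

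Antenna proteins bind chlorophyll and pass the energy of absorbed light to photosystem II, which splits water, and to photosystem I, which reduces ferredoxin. Plastocyanin carries electrons between the cytochrome complex and photosystem I, and Rubisco fixes carbon dioxide with the help of its activase. In green leaves the transcripts of many, but not all, of these genes are known as some of the most plentiful. Many are also known to be light-dependent and to fall in many kinds of stress.

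Rosette leaves were taken from 5-week old plants of the Col-0 ecotype, either wild type (WT) or overexpressing a transcription factor gene of grain amaranth, *AhERF-VII* (line EL25) or *AhDof-AI* (line DL2). OE-*AhERF-VII* plants were measured in optimal growth (Op), after 5 days without water (WS) and 24 h after watering was resumed (R), and OE-*AhDof-AI* plants in Op and under salt stress (SS), for which 40 mL of 400 mM NaCl was given on 3 consecutive days. WT plants of the same state were in the Cy3 channel of every array and the overexpressor (OE) in the Cy5 channel. Ages and treatment lengths are those of the sample labels, from which the study's methods differ, and the sources used here do not name the promoter behind the transgenes of these lines. The headers of the arrays name the lines DL25 and CL2 and give the WT of the 2 line sets different names. Each overexpressor was a single homozygous line, each state was on 1 array, and the dyes were never exchanged. The deposited normalized values recorded for WS match the raw R array and the reverse. The raw arrays were taken as recorded, and if they are the exchanged ones, every WS value below belongs to R and the reverse. No replicate error, test or p-value can therefore be given for any ratio, and a dye effect of a spot cannot be told apart from a difference between genotypes.

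The net signal of a spot (mean intensity minus local background, in scanner units) was compared with the 95th percentile over the 510 empty spots. Of the gene spots, 77.4% to 90.4% exceeded this limit in WT and 61.1% to 75% in OE, depending on the array. A channel that did not exceed the limit is called dark below, and the limit was chosen with the data known. The loci gave 40 to 45 members with a signal above the limit in WT, depending on the array, and 35 to 38 in OE. Altogether 31 of 45 members were above the limit in both channels of all 5 arrays, whereas PSAN, LHCB1.1, PETE2, PSAE1 and RBCS2B were dark in OE on all 5.

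The brightness of the spots was considered first, as a check of what the names stand for. Each locus was given its percentile of background-corrected signal among all loci of the array, separately for each channel, where 100 is the brightest. This is a rank of spots and not of transcript amounts, since spots differ in the DNA they carry. The mean percentile over 5 arrays and 2 channels had a median of 55.3 over the 45 members, compared with 49.1 over all loci. Only 2 members, or 4.44%, reached a mean percentile of 90, compared with 9.72% of all loci, while 26 (57.8%) reached 50, compared with 49.0%. Under 25 lay 6 members (13.3%), compared with 24.7% of all loci. Loci named for photosynthesis genes were thus seen less often than loci in general at both ends of the scale, in small counts. For the 8 members with several spots the locus value averages spots within and then between transcript identifiers, which draws it towards the middle.

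**Figure D1:**
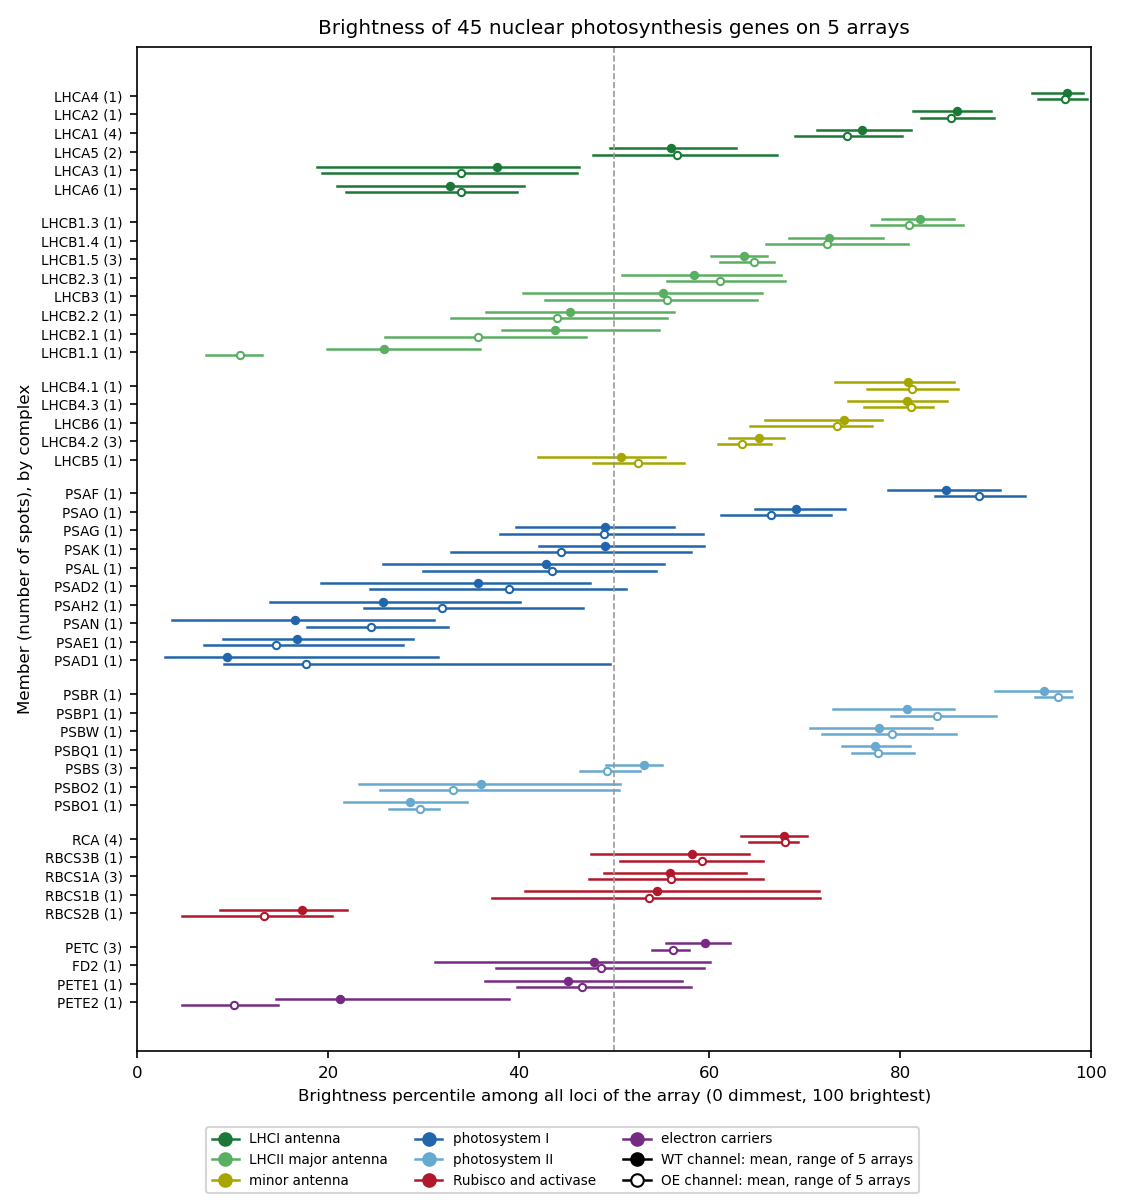
Brightness percentile (x axis) of each of the 45 members (y axis, with the number of spots) in the WT channel (filled) and the OE channel (open). Points are means and lines the range over the 5 arrays, and the dashed line marks percentile 50. LHCA4 and PSBR lie above 89 throughout, and photosystem I subunits spread from under 5 to over 90.

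The brightest member was LHCA4 (AT3G47470), an antenna protein of photosystem I. Its net signal in WT was 31018 on the AhERF-VII Op array, 27588 in WS, 14619 in R, 36396 on the AhDof-AI Op array and 37796 in SS. The OE channel gave 51198, 33927, 15630, 41887 and 42354 in the same order. Its percentile never fell below 93.8 in either channel, which makes it the steadiest member in WT (range 5.40 points).

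PSBR (AT1G79040), a small protein of the oxygen-evolving side of photosystem II, came next, with net signals in WT of 18705, 29974, 24681, 27379 and 32977 on the arrays in the order above. PSAF (AT1G31330), which helps plastocyanin to dock to photosystem I, gave 9728, 7468, 9704, 20714 and 13764. LHCA2 (AT3G61470), another LHCI protein, gave 16316, 8666, 3433, 22254 and 18807. PSBP1 (AT1G06680), an extrinsic protein of the water-splitting complex, had the fifth rank and a mean percentile of 82.3. These 5 members were above the empty spots everywhere.

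At the other end stood PSAD1 (AT4G02770), which forms the ferredoxin docking site of photosystem I. Its net signal in WT was 235 on the AhERF-VII Op array, 399 in WS, 97.2 in R, 179 on the AhDof-AI Op array and 170 in SS, and only in WS did either channel exceed the empty spots. RBCS2B (AT5G38420), a Rubisco small subunit, gave 482, 245, 172, 378 and 228 in WT and 26.5 to 127 in OE. PSAE1 (AT4G28750), another subunit on the ferredoxin side of photosystem I, gave 325, 263, 230, 319 and 231 in WT and 38.2 to 86.5 in OE. PETE2 (AT1G20340), a plastocyanin, had a mean percentile of 15.7, and LHCB1.1 (AT1G29920), a major LHCII protein, one of 18.3. For 4 of these 5 dimmest members the OE signal was dark on every array, so that their ratios hold at most one measured channel.

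By complex, the median of the mean percentiles was 77.5 for photosystem II, 73.7 for the minor antenna, 65.7 for LHCI, 57.6 for LHCII, 55.9 for Rubisco and activase, 47.1 for electron carriers and 40.3 for photosystem I. Within most complexes the range was far wider than these medians were apart. Photosystem I ran from 13.5 (PSAD1) to 86.5 (PSAF), and photosystem II from 29.1 (PSBO1, AT5G66570) to 95.8 (PSBR). PSBO1 and PSBO2 (AT3G50820) encode the manganese-stabilizing protein of the water-splitting complex, and both spots were dim, with mean percentiles of 29.1 and 34.6. The minor antenna was the one complex with all members above percentile 50, from 51.6 for LHCB5 (AT4G10340) to 81.0 for LHCB4.1 (AT5G01530).

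The remaining members of intermediate rank had mean percentiles of 80.9 for LHCB4.3 (AT2G40100) and 73.7 for LHCB6 (AT1G15820) in the minor antenna, and of 78.4 for PSBW (AT2G30570) and 77.5 for PSBQ1 (AT4G21280) in photosystem II. In photosystem I they were 67.8 for PSAO (AT1G08380), 48.9 for PSAG (AT1G55670), 46.7 for PSAK (AT1G30380), 43.2 for PSAL (AT4G12800), 37.3 for PSAD2 (AT1G03130), 28.8 for PSAH2 (AT1G52230) and 20.5 for PSAN (AT5G64040). LHCA3 (AT1G61520) and LHCA6 (AT1G19150) in LHCI had 35.8 and 33.4, and FD2 (AT1G60950), the main leaf ferredoxin, and PETE1 (AT1G76100), the second plastocyanin, had 48.2 and 45.9. Over the 5 arrays the WT percentile of a member ranged over 13.3 points in the median, with the widest range for RBCS1B (AT5G38430), from 40.7 to 71.5.

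Other lists of leaf genes and of genes typical of other organs were ranked the same way. Genes of the Calvin cycle (16 loci) had a median of 53.8, chlorophyll synthesis (18) 57.7, further thylakoid proteins (24) 61.4, regulators of photosynthesis genes (16) 64.1 and further abundant leaf transcripts (13) 56.8. Markers of seed storage (14 loci) had a median of 45.1, root markers (9) 57.0 and pollen markers (7) 55.9. The 45 members at 55.3 stood between these values. The brightest locus of the seed list was EM1 (AT3G51810, an embryonic protein) at 94.5. That of the pollen list was VGD1 (AT2G47040, a pectin methylesterase of pollen tubes) at 96.4. Both lay near the brightest 2 members, at 97.4 (LHCA4) and 95.8 (PSBR). The same lists ran down to 8.28 (EM6) and 5.04 (ANX1), and 5 of 14 seed loci (35.7%) lay under percentile 25. Over the 5 arrays, the seed storage list had 8 to 12 of 14 loci (57.1% to 85.7%) above the empty spots in WT, below the share of the members on each array (88.9% to 100%). The root list had 8 or 9 of 9 and the pollen list 6 of 7 above them. The members thus lay above the seed storage list in median and in the share above the empty spots, but not above the root and pollen lists in median, and the cause was not tested. A value below belongs to the spots that carry a name, and the brightness did not show that they measure the named transcript.

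**Figure D2:**
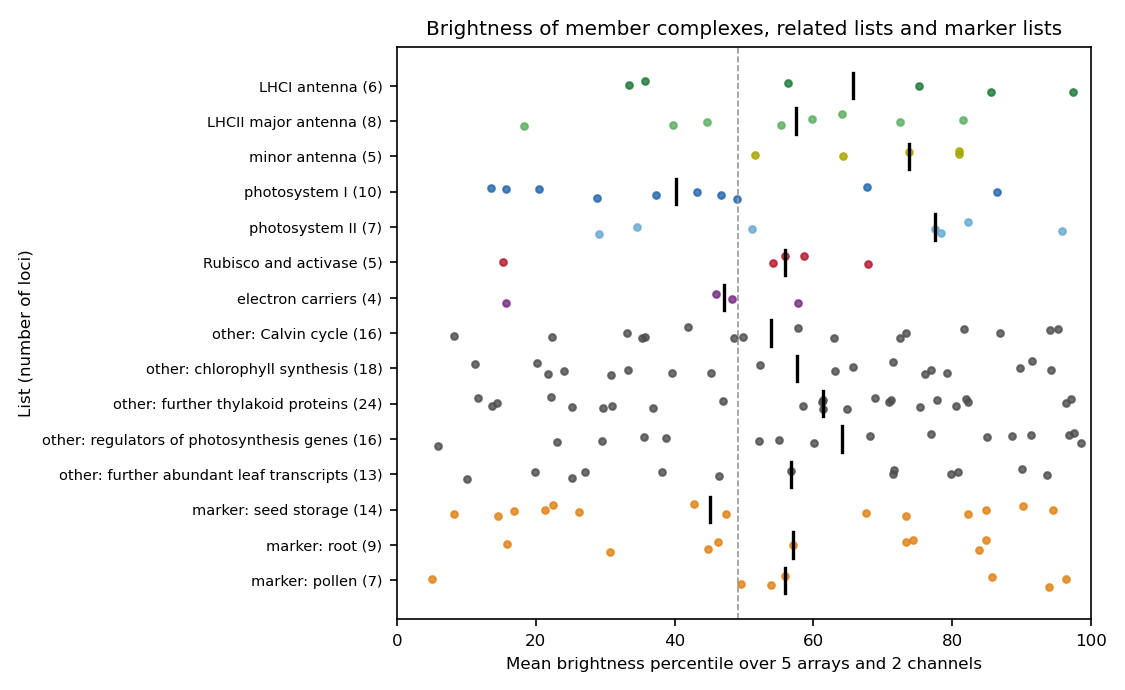
Mean brightness percentile over 5 arrays and 2 channels (x axis) of each locus in the 7 member complexes (coloured), 5 lists of related or abundant leaf genes (grey) and 3 marker lists of other organs (orange). Vertical bars are medians, from 40.3 for photosystem I to 77.5 for photosystem II, and the dashed line is the median of all loci at 49.1.

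In all, 8 members had several spots, which gives a measure of how far spots of a single name differ. Percentiles in this paragraph and the next are among the 29234 gene spots. LHCA1 (AT3G54890), an LHCI protein, had 4 spots with mean percentiles of 92.1, 89.9, 87.5 and 27.0. The brightest of these gave net WT signals of 17524, 20846, 20655, 35580 and 22505 on the 5 arrays, and the dimmest gave 957, 387, 162, 407 and 380, which is a difference of 18.3-fold to 127-fold. Rubisco activase (RCA, AT2G39730) had 4 spots at 91.0, 60.8, 52.2 and 26.6, and brightest and dimmest differed by 37.3-fold to 65.9-fold. LHCB4.2 (AT3G08940) had spots at 89.8, 70.1 and 40.4, and PETC (AT4G03280), the Rieske protein of the cytochrome complex, at 67.2, 64.6 and 20.2.

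The distance between the brightest and the dimmest spot of a member had a median of 40.8 points over the 8 members. It was 34.5 for PSBS (AT1G44575), a protein of photoprotective energy dissipation, 33.1 for LHCB1.5 (AT2G34420), 32.6 for LHCA5 (AT1G45474) and 12.8 for RBCS1A (AT1G67090). A single spot, by contrast, moved over a median of 16.8 points across all arrays and channels. Spots of a shared name thus often lay farther apart than a spot moved, but not always. RBCS1A was an exception, with a spot that moved from 30.2 to 70 while its spots lay 12.8 points apart in the mean. Spots that carry the same transcript identifier could lie together, as the pair of LHCA1 at 87.5 and 89.9, or apart. The spots of LHCB1.5 all carry one identifier and lay at 43.9, 64.1 and 77.0, and for 6 of the 8 members all spots sat at the same row and column of different blocks.

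The log2 ratios of such spots also differed. The spots of PSBS gave -0.84, -0.36 and 0.32 on the AhERF-VII Op array, and those of LHCA5 gave -0.57 and 0.35. Annotation differed as well, as 2 of the 62 spots, 1 of LHCA5 and the single spot of LHCB3 (AT5G54270), carry another locus in the older identifier column of the files (TIGR release 5, against TAIR release 7 for the column used here). A locus value is the mean over its transcript identifiers, each averaged over its own spots, and the 37 members with a single spot have no such check.

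**Figure D3:**
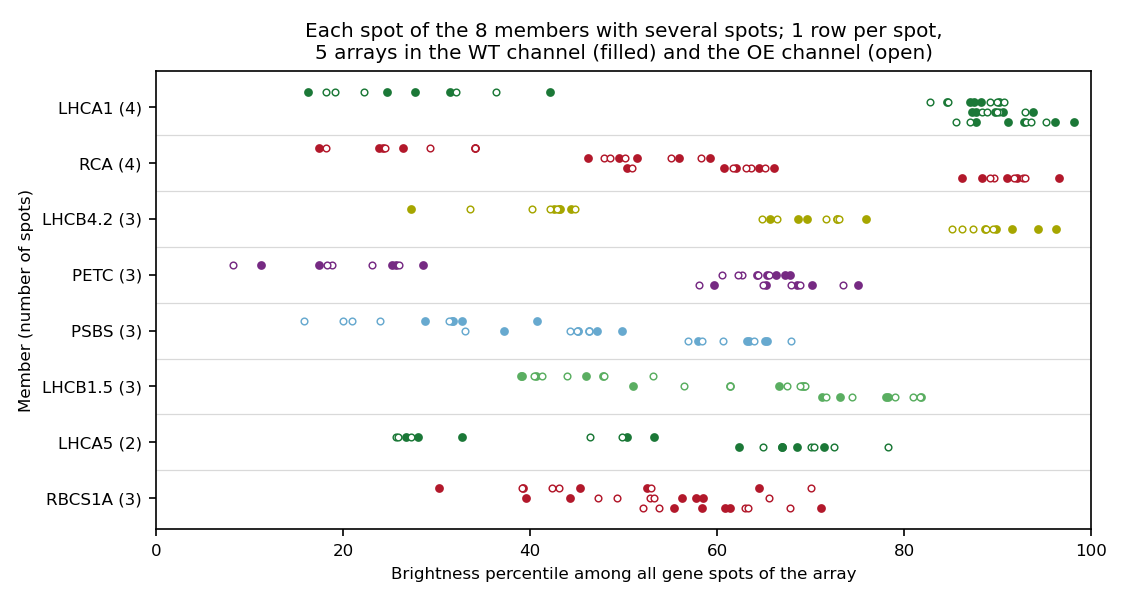
Brightness percentile among gene spots (x axis) of every spot of the 8 members with several spots (y axis, 1 row of points per spot), with the 5 arrays in the WT channel (filled) and the OE channel (open). The dimmest spot of LHCA1, RCA, LHCB4.2 and PETC lies apart from the other spots of its name, several of which overlap, and the spots of RBCS1A overlap one another.

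Neighbouring genes of nearly identical sequence gave a further comparison. LHCB1.1 and LHCB1.3 (AT1G29930) lie next to each other and encode near-identical LHCII proteins. Their WT net signals on the 5 arrays were 531, 279, 192, 454 and 502 for the former, and 15077, 11344, 2510, 13911 and 7820 for the latter. The spots lay 63.2 percentile points apart in the mean, and another gene of this cluster, LHCB1.2 (AT1G29910), had a mean percentile of 64.8. Of the adjacent Rubisco genes, RBCS3B (AT5G38410) had a mean percentile of 58.7, RBCS2B of 15.3 and RBCS1B of 54.1. The pair LHCB1.4 (AT2G34430) and LHCB1.5 differed by 8.29 points and LHCB2.1 (AT2G05100) and LHCB2.2 (AT2G05070) by 4.94 points. How far transcripts of one copy bind to the spots of another was not tested.

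The comparison of each overexpressor with WT used the log2 ratio after loess normalization and a Z score, which set a locus against the 100 loci nearest to it in brightness. Calls were made from a size of 2 upwards in that score, a rule that marks a nearly fixed share of any array. Of 45 members, 9 (20%) were called on at least 1 array, compared with 17.2% of all loci, and the other 36 on none. There were 13 calls, 7 higher and 6 lower than WT, and in 6 of them the OE channel was dark. Members were called in 5.78% of their values, compared with 5.05% over all loci, so that the share called was near the background.

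On the AhERF-VII Op array, the median log2 ratio of the members was -0.11 (0.0049 when arrays were only centred on their median) and 30 of 45 were below WT, compared with 50.1% of all loci. There 1 member was called higher (2.22%, background 1.83%) and 1 lower (2.22%, background 3.25%). On the WS array the median was 0.09 (0.31 with centring only, 0.015 with print-tip loess and 0.01 in the deposited normalized values matched to this array), with 27 of 45 above WT, 3 called higher (6.67%, background 2.06%) and 1 lower (background 3%). On the R array the median was 0.05 (0.024 with print-tip loess and 0.00045 in the matched deposited values), again with 27 of 45 above WT, 3 called higher (background 2.29%) and 1 lower (background 2.73%). On the AhDof-AI Op array the median was -0.14 and 32 of 45 were below WT, with none called higher (background 1.56%) and 1 lower (background 3.61%). On the SS array the median was -0.04, with none called higher (background 1.45%) and 2 lower (4.44%, background 3.46%). The median of all loci was within 0.005 of 0 on every array. No array thus had more than 3 members called in a direction, and with 1 array per state the differences between these medians cannot be set against an error.

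**Figure D4:**
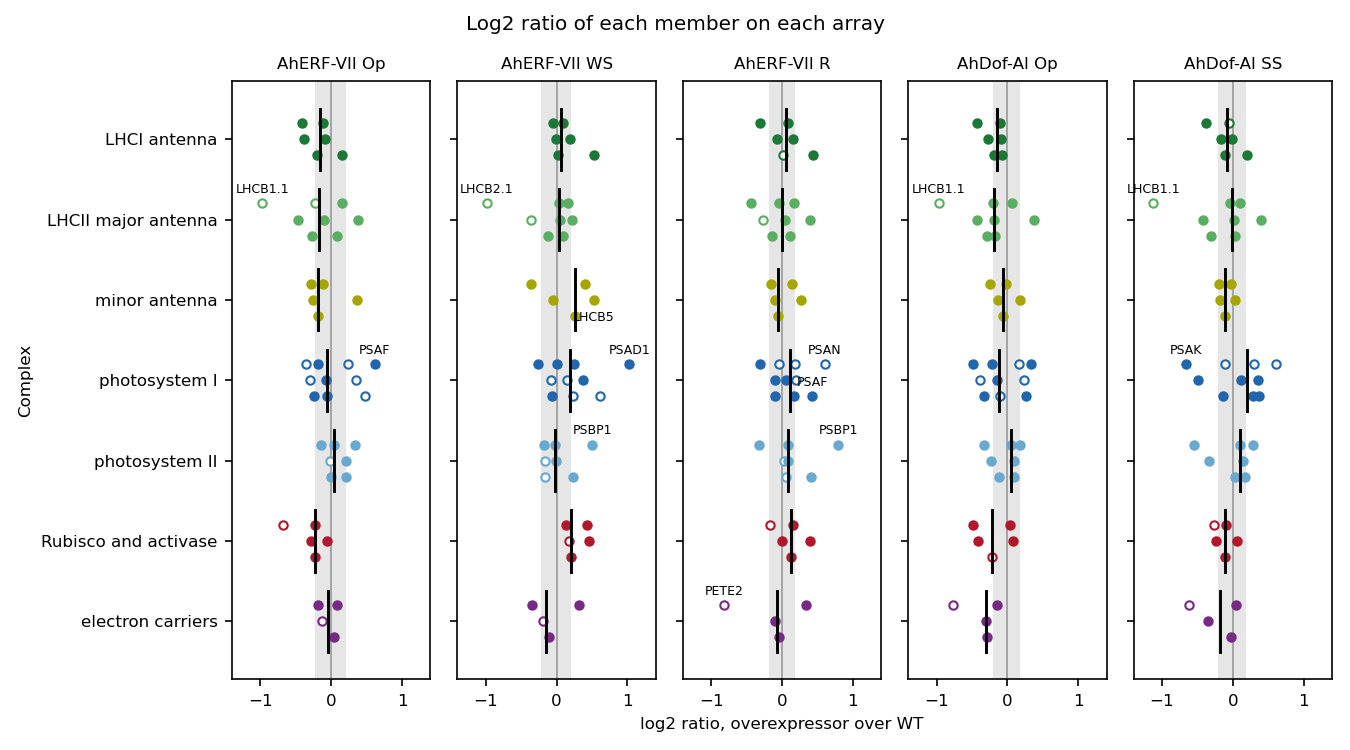
Log2 ratio of overexpressor over WT (x axis) of each member on each of the 5 arrays, by complex (y axis). Open points had at least 1 dark channel, vertical bars are medians of a complex, grey bands run from the lower to the upper quartile of all loci, and called members are named. Most points lie between -0.5 and 0.5, and LHCB1.1, LHCB2.1 and PETE2 stand apart on the low side with a dark OE channel.

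LHCB1.1 had the lowest ratio of all members on both Op arrays and in SS, with a dark OE channel. Its intensity after loess was 338 in WT against 172 in OE on the AhERF-VII Op array, 221 against 172 in WS, 181 against 149 in R, 347 against 178 on the AhDof-AI Op array and 367 against 168 in SS. The log2 ratios were -0.97, -0.36, -0.27, -0.96 and -1.12, and the Z scores of -2.13, -2.92 and -2.83 on both Op arrays and in SS were calls. Because the OE channel was dark on all 5 arrays, the ratio has no measured size. A nominal fold is given for calls with 1 dark channel. Its divisor is the larger of the dark signal and the lowest signal of a locus above the limit. For LHCB1.1 it was 1.3-fold lower than WT on the AhERF-VII Op array, 1.53-fold on the AhDof-AI Op array and 1.84-fold in SS. A nominal fold is not a lower bound, because the lowest such signal of the array was taken. On the AhERF-VII Op array only 66.3% of all loci exceeded the limit in OE, and the lowest WT percentile in LHCII, that of LHCB1.1, was 25.1. Its near-identical neighbour LHCB1.3 was bright in both channels, with log2 ratios of -0.47, 0.09, -0.15, -0.18 and -0.04 and no call. LHCB1.2, another gene of this cluster, had log2 ratios of -0.41, 0.49, 0.21, -0.75 and -0.46. It was called lower on the AhDof-AI Op array (Z score -2.54) with both channels above the empty spots.

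LHCB2.1, another LHCII protein, had intensities after loess of 627, 506, 472, 632 and 500 in WT and of 585, 255, 350, 471 and 374 in OE. It was called in WS alone (log2 ratio -0.99, Z score -3.00), nominally 1.98-fold below WT with the OE channel dark. This value is the plain ratio, since the dark signal itself was the divisor. Its neighbour LHCB2.2, of near-identical sequence, had a log2 ratio of -0.13 there. The electron carrier PETE2 had 267, 192, 265, 228 and 238 in WT and 243, 168, 150, 134 and 155 in OE. It was called in R (log2 ratio -0.82, Z score -3.88, nominally 1.69-fold lower, OE dark). The other plastocyanin, PETE1, had a log2 ratio of 0.34 on that array.

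PSAK, which lies at the antenna side of photosystem I, was called lower in SS with both channels above the empty spots. Its intensity after loess was 888, 824, 600, 793 and 533 in WT and 751, 689, 561, 633 and 336 in OE, and the log2 ratio in SS was -0.67 (1.59-fold, Z score -2.41). WT was the higher channel on all 5 arrays, and the other 4 ratios of this subunit lay between -0.32 and -0.10.

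The members called higher on 2 arrays, PSAF and PSBP1, were bright in both channels throughout. Intensities of PSAF after loess were 9060, 7095, 9564, 21374 and 13812 in WT and 13862, 9144, 12886, 25581 and 16854 in OE. The OE channel was the higher one on every array, with log2 ratios of 0.61, 0.37, 0.43, 0.26 and 0.29, and it was called on the AhERF-VII Op array (1.53-fold, Z score 2.79) and in R (1.35-fold, Z score 2.07). PSBP1 gave 7764, 11175, 1502, 17018 and 10047 in WT and 8984, 15872, 2601, 18202 and 12205 in OE. It was called in WS (log2 ratio 0.51, Z score 2.28) and in R (0.79, Z score 2.67), and was also above WT on the other 3 arrays, by 0.10 to 0.28.

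PSAD1 was called in WS, the only array on which it exceeded the empty spots. Its intensity after loess was 349 in WT and 710 in OE there (log2 ratio 1.03, 2.04-fold, Z score 3.70), and 116 to 163 in WT and 133 to 207 in OE on the other 4 arrays, on which no fold is given because both channels were dark. PSAD2, which encodes the same subunit, had a log2 ratio of 0.15 in WS. LHCB5, a minor antenna protein, was called in WS as well (749 in WT and 1079 in OE, log2 ratio 0.53, Z score 2.05), and its ratio was -0.11, 0.27, -0.02 and -0.18 on the remaining arrays. PSAN, a lumenal subunit of photosystem I, passed the threshold in R (Z score 2.2) with both channels dark, so that no fold is given. The calls of LHCB1.1 on the AhERF-VII Op array, of LHCB5 and PSAN, and of PSAK were kept in 5 of the 8 or 9 alternative settings that gave a value, and the other 9 calls in 7 or more.

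By complex, Rubisco and its activase were below WT in all 5 members on the AhERF-VII Op array (median log2 ratio -0.23, median Z score -0.72) and above WT in all 5 in WS (0.20, Z score 0.75), with no call on any array. RBCS2B, dark in OE on all 5 arrays, is counted in both. Whether these signs depend on loess was not tested. The Rubisco small subunits are near-identical in sequence and their values may not be independent. All 6 LHCI proteins were below WT on the AhDof-AI Op array (median -0.15), and 5 of 6 on the AhERF-VII Op array (median -0.15), and none was called on any array. The 4 electron carriers were also all below WT on the AhDof-AI Op array (median -0.30, median Z score -1.10), with PETE2 dark in OE. Photosystem I held 5 of the 13 calls, 4 higher and 1 lower, and LHCII held 4, all lower, which is 10% of the values of each complex, compared with 5.05% over all loci. All LHCII calls had a dark OE channel and 3 of them came from LHCB1.1, and the call of PSAN had both channels dark. The medians of photosystem II lay between -0.02 and 0.10 on the 5 arrays. On the AhDof-AI Op array the highest ratio was that of LHCB2.3 (AT3G27690), an LHCII protein, at 0.38 with both channels bright (2184 in WT and 2840 in OE). In SS it was also the highest, at 0.40, among members with both channels above the empty spots.

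In total 9 members (20%) were below WT on all 5 arrays, compared with 18.4% of all loci, and 7 (15.6%) above WT on all 5, compared with 18.7%. Signs with a dark channel are counted here. Of the former, LHCB1.1, PETE2 and PSAE1 were dark in OE on all 5 arrays. Of the latter, PSAD1 and PSAH2 each exceeded the limit in OE on only 1. The 5 arrays were all labelled the same way round, so that a sign kept on all 5 is shared by genotype and dye, which cannot be told apart.

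Genes of the same pathways outside the 45 were scored by the same rule. In the Calvin cycle 4 of 16 loci were called on some array, 1 higher and 3 lower. Among these PRK (AT1G32060), phosphoribulokinase, was called lower on 4 arrays, with the OE channel dark in each. Its nominal folds were 1.76 on the AhERF-VII Op array, 1.48 in WS, 1.83 on the AhDof-AI Op array and 2.27 in SS. In chlorophyll synthesis 1 of 18 was called, LIN2 (AT1G03475, coproporphyrinogen oxidase), lower on the AhDof-AI Op array with both channels dark. Of the 24 further thylakoid proteins 2 were called higher and 2 lower, with FD1 (AT1G10960), the minor leaf ferredoxin, lower on 2 arrays. Among the 16 regulators 1 was called higher, SIG5 (AT5G24120, a plastid sigma factor). In WS 2 were called lower with a dark OE channel, both transcription factors of greening. They were HY5 (AT5G11260, nominally 1.89-fold) and GNL (AT4G26150, no nominal fold above 1). Of the 13 further abundant leaf transcripts 3 were called, all lower. These shares lay between 5.56% and 25% of a list, on either side of the 17.2% of all loci. In the seed storage list 4 of 14 loci (28.6%) were called, 3 higher and 1 lower. SESA5 (AT5G54740) was higher on 4 arrays (both channels above the empty spots on 3 of them, with log2 ratios of 0.59 to 0.70). OLEO2 (AT5G40420) was lower on 2 arrays with both channels above the empty spots. EM1 was higher on 2 arrays with both channels above the empty spots, and OLEO4 (AT3G27660) on 2 with at least 1 channel dark. All 4 were called on more than 1 array, as were 1413 of the 26017 loci. In this list 14.3% of values were called, compared with 5.05% over all loci. Calls on several arrays thus also occurred for names not known from leaves. In the root list 2 of 9 loci (22.2%) were called and in the pollen list 1 of 7 (14.3%).

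Growth states were compared within a channel, as the log2 intensity of the stressed array minus that of the Op array of the same line, after the arrays were scaled to each other by mean brightness. Each Op array held WT plants grown in Op, so that the difference between them holds no stress. These WT plants belong to the 2 line sets, so a spread between arrays cannot be told apart from one between sets. Between the 2 Op arrays, 6 of 45 members (13.3%) differed at least 2-fold, compared with 11.6% of all loci. The median size of the difference was 0.46 over members and 0.37 over all loci. Within the AhDof-AI set a smaller share of all loci, 2.92%, differed at least 2-fold in WT between SS and Op. FD2, for example, was 1.06 higher and PSBO2 1.17 lower on the AhDof-AI Op array, on the log2 scale. A difference of that size between states was therefore also seen between 2 WT samples of the same state.

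In WS minus Op, 9 members (20%) differed at least 2-fold in WT, compared with a background of 11.4%, and 7 (15.6%) in OE, background 9.22%. Their median difference was 0.12 in WT and 0.23 in OE, with 24 and 29 of 45 above 0. In R minus Op, 14 members (31.1%, background 22.3%) differed at least 2-fold in WT and 13 (28.9%, background 19.9%) in OE, with medians of -0.11 and 0.12, the former turning to 0.14 without loess. In SS minus Op, 3 members (6.67%, background 2.92%) differed in WT and 1 (2.22%, background 2.34%) in OE, with medians of 0.06 and 0.07 (0.30 and 0.43 without loess). With loess these medians lay between -0.11 and 0.23, against -0.17 between the 2 WT samples in Op, and the sign in R minus Op was not the same in WT and OE. All differences from AhERF-VII Op share that array, and in leaf RNA fewer cells of a type and less RNA per cell cannot be told apart.

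**Figure D5:**
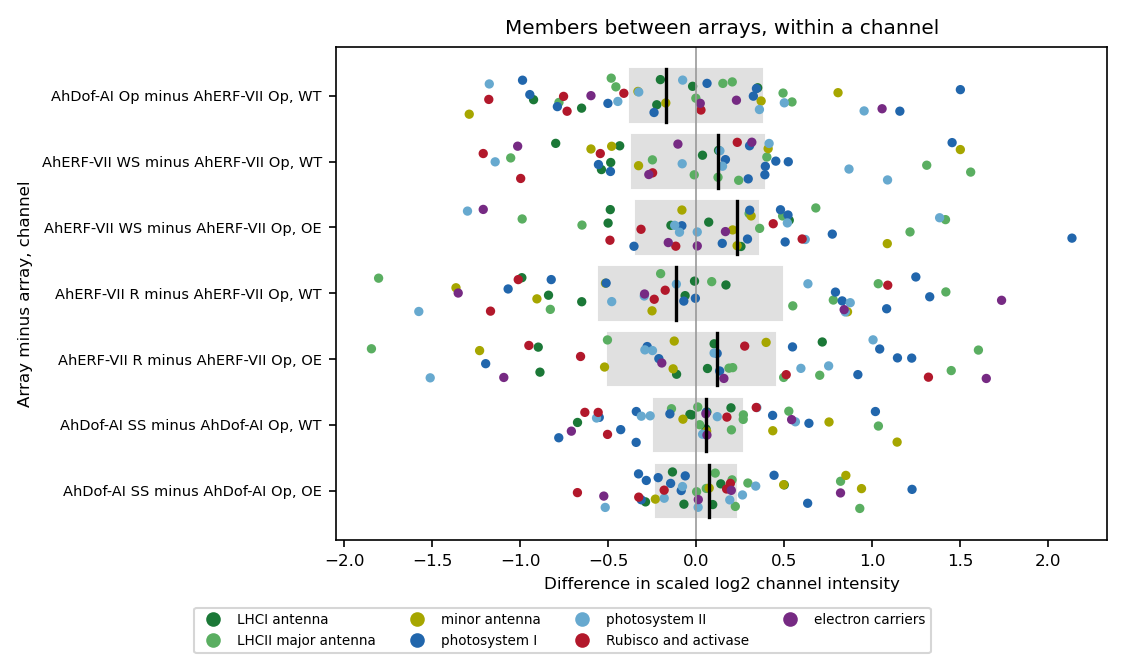
Difference in scaled log2 intensity between arrays within a channel (x axis) for the 45 members, coloured by complex, in 7 comparisons (y axis). Black bars are member medians, grey boxes run from the lower to the upper quartile of all loci, and the top row compares WT plants in Op on the 2 Op arrays, in which members ranged from -1.29 to 1.5.

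Single members are given with the difference between both WT samples in Op beside them. In WS minus Op, the largest WT differences were those of LHCB2.3 (1.56 in WT and 1.22 in OE) and LHCB4.1 (1.5 in WT and 1.09 in OE), both bright in both channels, and the Op arrays differed by 0.49 and 0.81. PSAD1 gave 1.45 in WT and 2.14 in OE, but both channels were dark in Op, so that no size can be read from these values. In R minus Op, LHCB3 and FD2 had the largest WT differences. LHCB3, an LHCII protein, had a scaled log2 intensity in WT of 10.79 in AhERF-VII Op, 9.73 in WS and 8.98 in R, and of 10.01 and 11.04 in AhDof-AI Op and SS. Its R minus Op difference was -1.80 in WT and -1.84 in OE, and the Op arrays differed by -0.78. The single LHCB3 spot carries another locus in the older identifier column. Both channels are read from one spot of an array, so their likeness is not a replicate.

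FD2 was 1.74 higher in R than in Op in WT and 1.65 higher in OE, and 1.06 apart between the Op arrays. In WT, 4 members (8.89%, background 5.33%) differed at least 2-fold from Op in both WS and R, and both differences take away the same Op array. LHCB2.2 was 1.31 higher in WS and 1.42 higher in R than in Op in WT, and the Op arrays differed by 0.21. Its OE channel was dark in Op, so that no difference is given for OE. LHCB3, PETE1 and PSBO2 were the others. PSBO2 gave -1.14 in WS and -1.58 in R in WT (OE dark in both), and the Op arrays differed by -1.17. PETE1 gave -1.01 and -1.35, and the Op arrays differed by -0.60. Of these 4, LHCB2.2 had the smallest difference between the Op arrays. In SS minus Op, LHCB4.3 (1.14), LHCB3 (1.04) and PSAH2 (1.02) were at least 2-fold higher in WT, and the Op arrays differed by -1.29, -0.78 and, with PSAH2 dark in AhERF-VII Op, 0.34. PSAH2, which binds the mobile LHCII at photosystem I, was a dim spot with percentiles in WT of 21.9 in Op and 40.1 in SS. It was also the member counted above in OE, where its channel was dark in Op.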

How the data were processed

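Each array held 30000 spots, of which 29234 carried a gene and 510 were empty. The deposited intensity values, 1 mean and 1 local background per spot and channel, came from scanning by the authors with software that the sources used here do not name. The deposited normalized intensity values are the authors' own, and served as an alternative only, and the fold changes beside them were not used. The table recorded for WS held the values of the raw R array and the reverse, so both assignments were run, and the raw arrays were taken as recorded.

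Intensities were corrected with normexp (offset 50) and normalized by loess within each array in limma 3.58.1 (R 4.3.3), with control spots at weight 0. Spots were averaged by transcript identifier and then by locus (TAIR release 7), and all 45 members were named through the reference table. Differences between arrays used Aquantile scaling of the loess values. Further steps ran in Python 3.11.15, and the steps were tested on simulated data. The number of arrays limits the precision. No p-value was computed, since each state had 1 array.

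The 45 members, the other gene lists, the calling rules and the limit set by empty spots were chosen with earlier results of these data known. All members could be named, and those with values on every array were the called members, the 5 brightest and 5 dimmest, the highest and lowest ratio of each array, and members with differing spots or near-identical neighbours. Of each other list up to 4 loci called on most arrays were named.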

Additional observations from a re-analysis of the deposited data

Results flagged for a closer look

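For 2 members the ratio had one sign on all 3 AhERF-VII arrays and the opposite sign on both AhDof-AI arrays, and this difference was not tested. LHCA4 had log2 ratios of 0.15, 0.09 and 0.09 on the former and of -0.08 and -0.11 on the latter, a difference in mean of 0.2053. LHCB3 had 0.15, 0.21 and 0.11 against -0.21 and -0.31, a difference of 0.4166. The single spot of LHCB3 carries another locus in the older identifier column. Such opposite signs were found in 4.44% of members and in 5.85% of all loci.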

How the results depend on the processing

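No paired analysis was possible because each state had 1 array, and for that reason no array could be left out. Of the 40 median log2 ratios recomputed, 38 moved by less than 0.1, of 50 counts of called members 39 stayed within 1.5 times, of 20 median percentiles 19 moved by less than 5 points, and of 18 state differences 15 moved by less than 0.1. These limits were set after the data were seen. With median centring in place of loess, the median log2 ratio was 0.00491 on the AhERF-VII Op array, which turns its sign, and 0.3081 in WS. Without loess, the median difference in WT was 0.1386 for R minus Op, again turned, and 0.299 for SS minus Op, with 0.4333 in OE. With print-tip loess, and with the deposited normalized values under either assignment, 1 member was called on the AhERF-VII Op array and 4 on the AhDof-AI Op array (LHCB1.1, LHCB2.3, RBCS1B and PETE2). With loci under the 25th percentile of brightness left out, 1 was called on the AhERF-VII Op array, 0 on the AhDof-AI Op array and 1 in SS, as the dim members no longer took part. A rule of at least 1.5-fold called 2 on the AhDof-AI Op array and 4 in SS. Taking the brightest spot of each locus gave a median percentile of 59.95 in WS. No called member changed sign under any setting that gave it a value. The other causes were not tested.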
